A study of Mus musculus with 6 samples.

Results

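Whether an NK cell lives or dies by its mitochondria is set by the BCL2 family. Of its genes, 10 were followed in immature NK cells of mice with intact or with floxed Myc alleles. They were chosen by name and known role, not by a measured value, from the 25690 gene symbols of the tables. Earlier results of these data were known at that time. They comprised 4 anti-apoptotic genes (Bcl2, Mcl1, Bcl2l1 and Bcl2a1b), 2 effectors (Bax and Bak1) and 4 BH3-only genes (Bcl2l11, Bid, Bad and Pmaip1). All 10 passed the filter on low counts and were among the 15474 genes tested. The cells were the CD27SP subset (NK1.1+CD27+CD11b- and negative for CD3, among the markers of the gate) of the BM, taken by sorting from C57BL/6 mice of the genotypes Ncr1cre Myc wt/wt (written Myc wt/wt) or Ncr1cre Myc fl/fl (written Myc fl/fl). Each genotype had 3 RNA-seq libraries, with the numbers 1, 2 and 4. The animals of the study were matched for sex and age. Mice of both genotypes carried the Cre recombinase in the Ncr1 locus, which is active only in cells that have begun to express NKp46, and the floxed Myc alleles were present only in Myc fl/fl mice. The labels do not say how many mice gave a library, so the p-values measure the spread between these libraries, which may in part be technical. In such bulk RNA, fewer cells expressing a gene and less RNA per cell cannot be told apart.

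Proteins of this family meet at the outer mitochondrial membrane. Bax and Bak1 form the pores that release cytochrome c, and the anti-apoptotic proteins hold them in check. BH3-only proteins carry stress signals to the family, either by occupying the groove of the anti-apoptotic members or by activating Bax and Bak1 directly. In NK cells, IL-15 signalling is known to sustain survival through Mcl1 and Bcl2 and to restrain Bcl2l11. MYC is known in other cells to prime this pathway for death while it drives growth, through p53 and BH3-only proteins among others.

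The targeted gene was examined before the family. Its level, in counts normalised to the library size (CPM), was 200.5, 183 and 164 CPM in Myc wt/wt libraries 1, 2 and 4 and 61.5, 64.6 and 76.5 CPM in Myc fl/fl libraries 1, 2 and 4. The genotypes did not overlap, and the log2 fold change of Myc fl/fl against Myc wt/wt was -1.44 ± 0.15 (SE, n = 3 per genotype; adjusted p = 0.0019 in edgeR's quasi-likelihood test, and 0.0105 without replicate 1). The Myc fl/fl mean was 37.0% of the Myc wt/wt mean, so these libraries still held Myc transcript. Genes were called where the adjusted p was under 0.01 and the log2 fold change 0.5 or more in size, which 198 genes passed as higher and 135 as lower in Myc fl/fl cells (24 and 6 with offsets for effective transcript length). The estimated counts summed to between 54550907 and 64962491 per library, apart from Myc wt/wt library 1, which held 8101219.

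Markers of NK cells were abundant in every library, with the 12 on the list summing to between 18239 and 20213 TPM (length-scaled transcript level) in Myc wt/wt and between 22658 and 24362 TPM in Myc fl/fl cells, led by Nkg7, and none of them was called. Klrb1c, encoding NK1.1, was the most abundant gene of the sort gate and was not called. Markers of several other BM cell types were called higher in Myc fl/fl libraries. The basophil and mast cell list, led by Prss34, summed to 13.7 to 19.1 TPM against 159 to 453 TPM, with 8 of 8 genes called, and the granulocyte-monocyte progenitor list, led by Mpo, to 61.9 to 108 against 466 to 825 TPM, with 5 of 6 called. The erythroid list, led by Hba-a2, summed to 143 to 905 against 1825 to 3928 TPM with 2 of 7 called, and the dendritic cell list, led by Irf8, to 318 to 367 against 839.6 to 939 TPM with 3 of 5 called. For monocytes (led by Ccr2) 4 of 6 genes were called, for megakaryocytes and platelets (Pf4) 1 of 4 and for neutrophils (S100a8) 1 of the 7 tested, all of them higher in Myc fl/fl cells. No gene was called on the lists for B cells (led by Cd79b), T cells (Cd3g) and ILC1s (Il7r). On these lists, Vpreb1 was the single marker listed at 0 in all libraries of a genotype, Myc wt/wt. The part of these cell types in the results below was not tested unless a value is given.

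The transcripts of the family were first compared with each other in TPM, the scale that accounts for transcript length. In Myc wt/wt cells the most abundant members were Bax at 174 ± 48.5 TPM (SD, n = 3), Mcl1 at 133 ± 14.2 TPM and Bcl2 at 129 ± 18.1 TPM, and neighbours in this order overlapped between libraries. Bid (72.3 ± 7.57 TPM) and Bcl2l1 (70.4 ± 6.40 TPM) lay clearly below Bcl2 and overlapped with each other. Bad (42.0 ± 4.05 TPM), Bcl2a1b (32.3 ± 13.2 TPM) and Bcl2l11 (27.2 ± 1.57 TPM) followed, again with overlap between neighbours. Pmaip1 (1.76 ± 0.72 TPM) and Bak1 (1.71 ± 0.46 TPM) were the least abundant and overlapped, so that nearly all effector transcript in these cells was Bax.

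In Myc fl/fl cells the order was Bcl2 (167 ± 20.8 TPM), Mcl1 (148 ± 4.35 TPM), Bax (147 ± 32.8 TPM) and Bcl2l1 (108 ± 12.5 TPM), each overlapping with the next. Bcl2l1 now stood apart from Bid (76.4 ± 8.07 TPM), whereas the ranges of these genes had overlapped in Myc wt/wt cells. Bcl2l1 was ranked the fifth of the 10 genes in every Myc wt/wt library and the fourth in every Myc fl/fl library. Bad (51.9 ± 4.67 TPM) was followed by Bcl2a1b (33.7 ± 4.04 TPM) and Bcl2l11 (33.5 ± 6.33 TPM), which overlapped, and then by Pmaip1 (3.79 ± 1.88 TPM) and Bak1 (0.860 ± 0.160 TPM), which stood apart. No rank in any library changed when CPM per kilobase of effective length was used in place of the TPM.

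Summed by role, the 4 anti-apoptotic genes held 355, 363 and 376 TPM in Myc wt/wt libraries 1, 2 and 4 and 497, 449 and 421 TPM in Myc fl/fl libraries 1, 2 and 4. All Myc fl/fl sums were thus above the Myc wt/wt sums. The 6 pro-apoptotic genes summed to 266, 362 and 329.7 TPM against 325, 269 and 347 TPM, and here the genotypes overlapped. The anti-apoptotic share of the total was 57.2%, 50.03% and 53.2% in Myc wt/wt libraries and 60.5%, 62.5% and 54.9% in Myc fl/fl libraries, also with overlap. Myc wt/wt library 1 had the lowest Bax level of its genotype. These sums are a description and were not tested.

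**Figure D1:**
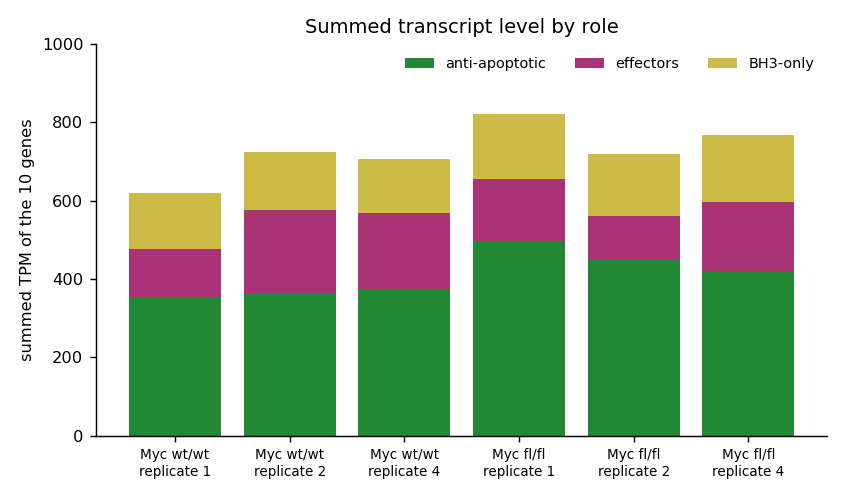
Stacked bars give the summed TPM of the 10 genes in each of the 6 libraries, split into anti-apoptotic genes (green), effectors (purple) and BH3-only genes (yellow). The green part lies between 355 and 376 TPM in Myc wt/wt libraries and between 421 and 497 TPM in Myc fl/fl libraries.

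The genotypes were then compared gene by gene, on the scale of normalised CPM. Bcl2l1 was the member with the clearest difference, at 1.57 times its Myc wt/wt level in Myc fl/fl cells, and Bcl2 and Mcl1 were higher in CPM in every Myc fl/fl library by smaller amounts, although the TPM of Mcl1 overlapped between the genotypes. Bak1, the minor effector, was lower in every Myc fl/fl library. None of the 10 genes was called by edgeR, against 1.28% of all tested genes called higher and 0.872% called lower. At an adjusted p below 0.05 with no fold limit, 1 member was higher (Bcl2l1) and none lower, where all tested genes gave 4.45% and 3.38%. Before adjustment, p was below 0.05 for 3 members that were higher (Bcl2, Bcl2l1 and Pmaip1) and for 1 that was lower (Bak1), beside 12.4% and 10.2% of all tested genes. DESeq2 called 1 member higher and 0 lower, with 4.16% and 3.47% of all tested genes called, and limma-trend called 0 in either direction, with 1.07% and 0.64%. Expression in CPM did not overlap between the genotypes for 3 members that were higher (Bcl2, Mcl1 and Bcl2l1) and 1 that was lower (Bak1), while 16.2% and 15.1% of all tested genes lay apart in these directions. The median log2 fold change of the 10 members was 0.19, and that of all tested genes 0.01. By role, the medians were 0.30 for the 4 anti-apoptotic genes, -0.69 for the 2 effectors and 0.20 for the 4 BH3-only genes. The effector value lies between that of Bax (-0.35) and that of Bak1 (-1.03), which was expressed at a low level. The summed effector TPM was 122, 213 and 194 in Myc wt/wt libraries 1, 2 and 4. It was 158, 111 and 174 in Myc fl/fl libraries 1, 2 and 4, with overlap.

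**Figure D2:**
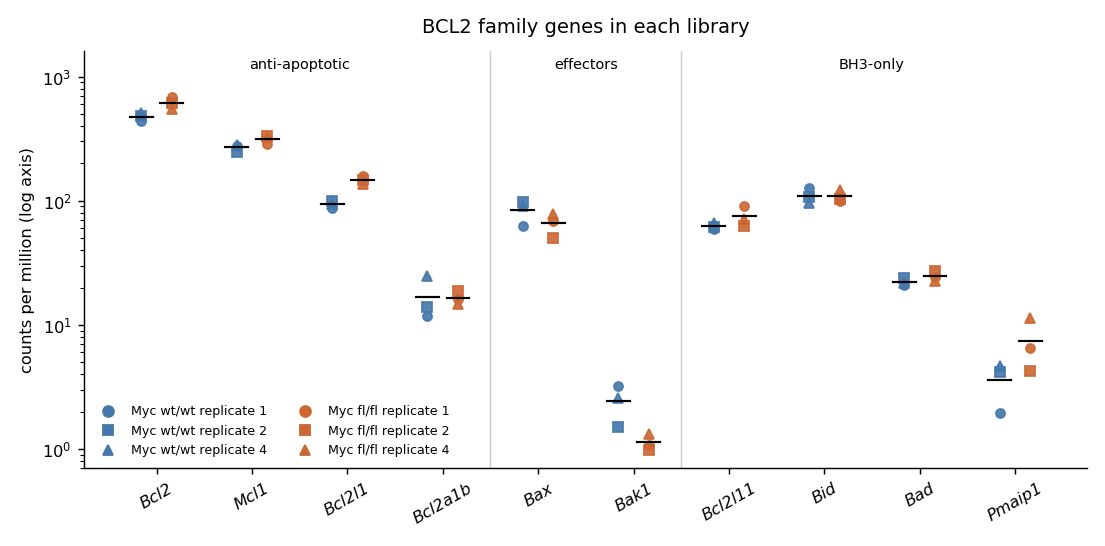
Normalised CPM (log axis) of the 10 genes are shown for each library, with blue symbols for Myc wt/wt and orange symbols for Myc fl/fl, a symbol shape for each replicate number and a black bar for the mean of each genotype. The orange symbols of Bcl2, Mcl1 and Bcl2l1 all lie above the blue ones, those of Bak1 all lie below, and the genotypes overlap in the other 6 genes.

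Bcl2l1 encodes BCL-XL, an anti-apoptotic protein that binds Bax, Bak1 and several BH3-only proteins, and that is known to protect platelets and maturing erythroid cells. Its gene (ENSMUSG00000007659.18) lies on the minus strand at chr2:152780668-152831728 of GRCm38. The level was 86.8, 100.2 and 94.4 CPM in Myc wt/wt libraries 1, 2 and 4 and 159, 147 and 136 CPM in Myc fl/fl libraries 1, 2 and 4. The lowest Myc fl/fl library was therefore well above the highest Myc wt/wt library, and the direction held in 3 of 3 pairs of equal replicate number. The means were 93.8 ± 6.72 and 147 ± 11.3 CPM (SD, n = 3). The log2 fold change was 0.65 ± 0.14 (SE; 95% interval 0.34 to 0.96; adjusted p = 0.0223 in edgeR), which passed the fold limit but not the limit on the adjusted p. The limit was passed in the fit with no replicate block (adjusted p = 0.00958), in DESeq2 (adjusted p = 0.00056) and with no filter on low counts (adjusted p = 0.00486). In these fits Bcl2l1 was the single member called. With no block 1.31% of all tested genes were called higher and 1.19% lower, with no filter 2.53% and 1.83%, and in DESeq2 without the block, where Bcl2l1 was also called, 4.54% and 4.13%. Over all settings the log2 fold change lay between 0.53 and 0.70 and the adjusted p between 7.07e-05 and 0.089.

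The erythroid markers beside Bcl2l1 moved in the same direction. All 7 of them were higher in every Myc fl/fl library, and 7 of 7 had an adjusted p below 0.05. The summed erythroid level was 188, 143 and 905 TPM in Myc wt/wt libraries 1, 2 and 4, and 3721, 3928 and 1825 TPM in Myc fl/fl libraries 1, 2 and 4. Myc wt/wt library 4 had the highest erythroid sum of its genotype and a Bcl2l1 level between those of the other two libraries in CPM and below them in TPM, and Myc fl/fl library 4 had the lowest erythroid sum and the lowest Bcl2l1 level of its genotype on both scales. Summed platelet and megakaryocyte markers were at 17.5 to 27.1 TPM against 41.9 to 123 TPM. The part of these cells in the Bcl2l1 difference was not tested.

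Among the 9 annotated transcripts of Bcl2l1, the leading ones were Bcl2l1-201 and Bcl2l1-202, which begin at different bases, 152831728 and 152830666, of chromosome 2. Bcl2l1-201 was at 26.6, 46.2 and 39.4 TPM in Myc wt/wt libraries 1, 2 and 4 and at 54.8, 66.1 and 58.8 TPM in Myc fl/fl libraries 1, 2 and 4. Bcl2l1-202 was at 9.04, 12.9 and 14.7 TPM against 37.1, 22.9 and 23.7 TPM. For both transcripts every Myc fl/fl library was above every Myc wt/wt library. The short Bcl2l1-204, which has 2 exons, was assigned 23.9 TPM in the shallow Myc wt/wt library 1 and at most 4.29 TPM in any other library. Shares of transcripts that overlap rest on how the quantification split shared reads, and were not tested.

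Because MYC binds the E-box CACGTG with its partner MAX, RefSeq promoter windows (GRCm38.p6, 250 bases before and 50 bases from each start) were searched for these letters, which read the same on both strands. Of the 10 members, 9 had a window, 13 windows in all, and only that of Bax held the motif, with 2 copies that begin at positions -9 and 36 from the start. Among all 32851 windows, 7.15% held the motif and 0.594% held 2 or more copies. The 150 bases before the starts of Bax (chr7:45466899-45467048, minus strand) and of Bcl2l1-201 (chr2:152831729-152831878, minus strand) are shown because Bax alone held the motif and Bcl2l1 differed most clearly between the genotypes, with the motif in capitals:
Bax: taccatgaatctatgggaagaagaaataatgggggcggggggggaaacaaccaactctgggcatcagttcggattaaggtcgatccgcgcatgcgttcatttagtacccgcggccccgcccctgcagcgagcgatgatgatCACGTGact
Bcl2l1: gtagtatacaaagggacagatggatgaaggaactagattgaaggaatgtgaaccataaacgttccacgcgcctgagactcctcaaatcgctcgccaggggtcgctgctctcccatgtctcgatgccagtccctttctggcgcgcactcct
A match describes these letters only, and MYC binding was not measured in these libraries.

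Bcl2, the founding survival protein of the family, is encoded on the minus strand at chr1:106538178-106714274 (ENSMUSG00000057329.7). Its level was 439.8, 481 and 507 CPM in Myc wt/wt libraries 1, 2 and 4 and 689, 618 and 547 CPM in Myc fl/fl libraries 1, 2 and 4. All Myc fl/fl libraries lay above all Myc wt/wt libraries, although Myc fl/fl library 4 was only slightly above the highest of them. The log2 fold change was 0.37 ± 0.15 (SE; 95% interval 0.04 to 0.70; adjusted p = 0.166 in edgeR), and it was 0.24 without replicate 1. The adjusted p lay between 0.051 and 0.446 over the settings tried. Its level was split over 2 annotated transcripts. Bcl2-201, which spans the whole locus with 2 exons, was at 52.0, 54.5 and 54.5 TPM against 92.2, 79.2 and 69.8 TPM, with no overlap. Bcl2-202, a single exon near the start of the gene, was at 55.7, 85.1 and 83.9 TPM against 97.2, 83.5 and 78.6 TPM, with overlap. The share of Bcl2-201 in the TPM of the gene was 48.3%, 39.0% and 39.4% in Myc wt/wt libraries and 48.7%, 48.7% and 47.0% in Myc fl/fl libraries, so that Myc wt/wt library 1 fell among the Myc fl/fl values.

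Mcl1 (ENSMUSG00000038612.16, chr3:95658788-95663176, plus strand) encodes a short-lived survival protein on which NK cells are known to depend. It was at 278, 248 and 279 CPM in Myc wt/wt libraries 1, 2 and 4 and at 289, 331 and 324 CPM in Myc fl/fl libraries 1, 2 and 4. The genotypes did not overlap in CPM, but the distance between Myc fl/fl library 1 and the nearest Myc wt/wt libraries was small, and the log2 fold change of 0.23 ± 0.14 (SE; adjusted p = 0.373 in edgeR) had a 95% interval of -0.08 to 0.53, which includes 0. In TPM, Myc wt/wt library 1 (149 TPM) lay above Myc fl/fl libraries 2 and 4 (both 145 TPM), and with offsets for effective length the log2 fold change was 0.08. The long Mcl1-201 (3 exons) was at 94.8, 98.5 and 105 TPM against 116, 134 and 132.5 TPM, with no overlap. The shorter Mcl1-202 (4 exons) was at 54.6, 25.0 and 21.4 TPM against 36.4, 11.2 and 12.8 TPM, with overlap. Both libraries numbered 1 had the highest Mcl1-202 share of their genotype, at 36.5% and 23.8%.

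**Figure D3:**
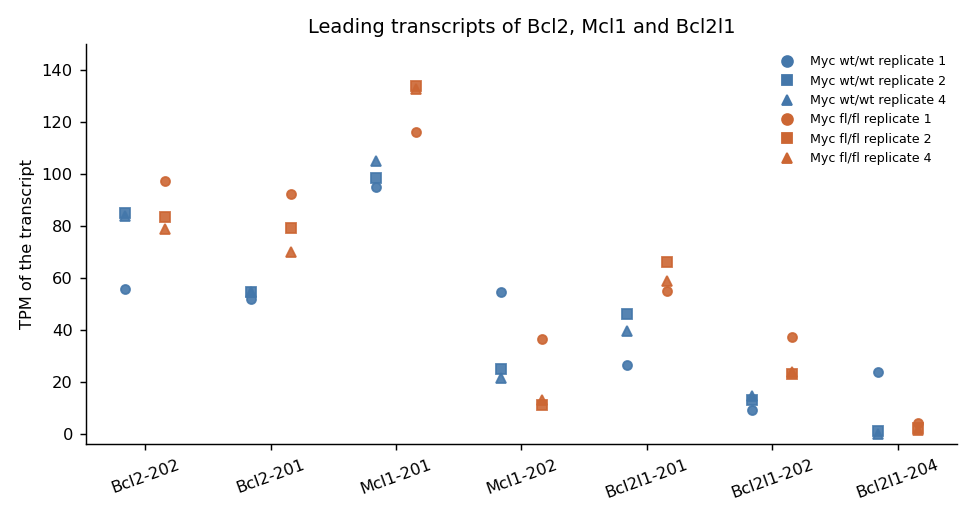
The TPM of the leading transcripts of Bcl2, Mcl1 and Bcl2l1 is plotted for each library, blue for Myc wt/wt and orange for Myc fl/fl, with a symbol shape for each replicate number. The orange symbols are all above the blue ones for Bcl2-201, Mcl1-201, Bcl2l1-201 and Bcl2l1-202, and overlap with them for Bcl2-202, Mcl1-202 and Bcl2l1-204.

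Bcl2a1b encodes A1, an anti-apoptotic protein induced by NF-kB in activated leukocytes, and is 1 of several near-identical copies on chromosome 9 (ENSMUSG00000089929.1, chr9:89199209-89207827, plus strand). The coding sequences of Bcl2a1a, Bcl2a1b and Bcl2a1d are each 516 bases long. Bcl2a1b differs from Bcl2a1d at 6 bases (98.84% identity) and from Bcl2a1a at 11 (97.87%). Of the 787 stretches of 31 bases in the Bcl2a1b transcript, 72.4% also occur in that of Bcl2a1d and 56.7% in that of Bcl2a1a, so that many reads of 1 copy could be assigned to another. The first 120 coding bases are shown because they hold much of what tells the copies apart, with the 7 positions at which they differ in capitals:
Bcl2a1a: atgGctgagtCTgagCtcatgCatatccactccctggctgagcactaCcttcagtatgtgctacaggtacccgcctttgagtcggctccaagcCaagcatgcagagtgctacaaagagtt
Bcl2a1b: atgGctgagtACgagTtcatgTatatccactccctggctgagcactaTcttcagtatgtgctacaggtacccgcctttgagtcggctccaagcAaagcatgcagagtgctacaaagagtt
Bcl2a1d: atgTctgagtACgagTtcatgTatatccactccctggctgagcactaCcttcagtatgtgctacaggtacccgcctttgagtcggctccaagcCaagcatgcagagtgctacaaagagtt

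Bcl2a1b was at 11.7, 14.1 and 24.6 CPM in Myc wt/wt libraries 1, 2 and 4 and at 16.1, 18.9 and 14.7 CPM in Myc fl/fl libraries 1, 2 and 4. The genotypes overlapped fully, and Myc wt/wt library 4 was the highest of all. The log2 fold change was 0.04 ± 0.26 (SE; 95% interval -0.54 to 0.62; adjusted p = 0.961 in edgeR), an interval wide enough to hold a change past the fold limit in either direction. Its sign differed between settings. With the copies Bcl2a1a, Bcl2a1b and Bcl2a1d summed, the level was 15.7, 17.9 and 31.6 CPM against 21.3, 23.2 and 21.8 CPM, and the log2 fold change 0.08 ± 0.22 (SE; adjusted p = 0.885). Gm29094, an annotated gene on the same strand, shares 49.1% of the exonic bases of Bcl2a1b and held 0.67 to 7.97 TPM.

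Bax is the soluble effector that moves to mitochondria when activated (ENSMUSG00000003873.11, chr7:45461697-45466898, minus strand). It was at 63.0, 97.7 and 90.2 CPM in Myc wt/wt libraries 1, 2 and 4 and at 69.1, 50.02 and 77.7 CPM in Myc fl/fl libraries 1, 2 and 4. Myc wt/wt library 1, the shallow one, lay among the Myc fl/fl values, and Myc wt/wt libraries 2 and 4 above them. Between the genotypes the log2 fold change was -0.35 ± 0.20 (SE; 95% interval -0.80 to 0.09; adjusted p = 0.337 in edgeR). It was -0.59 without replicate 1 and -0.03 without replicate 2, and over all settings the adjusted p lay between 0.117 and 0.949. Bax-201, the main transcript with 6 exons, carried 60.1% to 69.7% of the TPM of the gene in every library, and Bax-203 20.8% to 25.5%, with no separation between the genotypes.

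Bak1, the effector that resides at the mitochondrial membrane (ENSMUSG00000057789.14, chr17:27019810-27029009, minus strand), was expressed at a low level. It was at 3.25, 1.51 and 2.58 CPM in Myc wt/wt libraries 1, 2 and 4 and at 1.09, 0.99 and 1.32 CPM in Myc fl/fl libraries 1, 2 and 4. All Myc fl/fl libraries lay below all Myc wt/wt libraries, the log2 fold change was -1.03 ± 0.38 (SE; 95% interval -1.87 to -0.19) and the adjusted p 0.135 in edgeR. After thinning to the shallowest library the log2 fold change was -0.67 (adjusted p = 0.389). Between 25 and 169 counts per library stood behind these levels, with the lowest number in Myc wt/wt library 1. Bak1 shares 25.5% of its exonic bases with Ggnbp1 on the opposite strand, which held 0.19 to 2.57 TPM, and reads of these genes cannot be told apart there because the library kit does not keep the strand. The split between Bak1-202 and Bak1-201 varied from 100.0% Bak1-202 in Myc wt/wt library 1 to 17.1% in Myc wt/wt library 2. Bak1-201 is annotated as a target of nonsense-mediated decay and Bak1-202 as coding. Bak1-202 was at 1.89, 0.20 and 0.39 TPM in Myc wt/wt libraries 1, 2 and 4. In Myc fl/fl libraries 1, 2 and 4 it was at 0.74, 0.28 and 0.32 TPM, with overlap.

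Bcl2l11 encodes BIM, the BH3-only protein that kills lymphocytes deprived of cytokine (ENSMUSG00000027381.16, chr2:128126038-128162547, plus strand). It was at 59.4, 61.8 and 65.9 CPM in Myc wt/wt libraries 1, 2 and 4 and at 90.3, 62.1 and 71.9 CPM in Myc fl/fl libraries 1, 2 and 4. Only Myc fl/fl library 1 stood well above the rest, and library 2 was level with the Myc wt/wt libraries. This gave a log2 fold change of 0.24 ± 0.16 (SE; 95% interval -0.11 to 0.59; adjusted p = 0.412 in edgeR), which was 0.07 without replicate 1. Of its 8 transcripts, Bcl2l11-205 carried 28.8% to 38.1% and Bcl2l11-203 14.1% to 31.6% of the TPM, and their ranges overlapped between the genotypes.

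Bid links the death receptors to mitochondria once caspase 8 has cut it (ENSMUSG00000004446.12, chr6:120891930-120916853, minus strand), and was the most expressed BH3-only member. It was at 126, 106 and 96.7 CPM in Myc wt/wt libraries 1, 2 and 4 and at 99.7, 103 and 122 CPM in Myc fl/fl libraries 1, 2 and 4. The genotypes overlapped fully, with a log2 fold change of -0.01 ± 0.16 (SE; 95% interval -0.36 to 0.34; adjusted p = 0.978 in edgeR) and a sign that turned with the setting. Bid-201 held 97.1% to 99.4% of its TPM. The gene shares 17.7% of its exonic bases with Bcl2l13 on the opposite strand, at 17.2 to 34.5 TPM.

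Bad, a BH3-only protein kept inactive by phosphorylation downstream of growth factors (ENSMUSG00000024959.14, chr19:6941861-6951899, plus strand), was at 21.05, 23.7 and 21.6 CPM in Myc wt/wt libraries 1, 2 and 4 and at 24.4, 27.4 and 22.7 CPM in Myc fl/fl libraries 1, 2 and 4. The ranges overlapped in CPM, with a log2 fold change of 0.16 ± 0.17 (SE; 95% interval -0.21 to 0.53; adjusted p = 0.634 in edgeR), which was 0.33 after thinning to the shallowest library (adjusted p = 0.307). In TPM every Myc fl/fl library (47.7 to 56.9 TPM) lay above every Myc wt/wt library (38.7 to 46.5 TPM). Bad-202 was its main transcript, at 54.1% to 68.0% of the TPM. On the opposite strand, Gpr137 covers 20.5% of its exonic bases and held 4.16, 10.6 and 9.48 TPM in Myc wt/wt libraries 1, 2 and 4. In Myc fl/fl libraries 1, 2 and 4 Gpr137 held 13.1, 14.1 and 14.1 TPM, above every Myc wt/wt library. The library kit does not keep the strand, and the part of these shared bases in the Bad levels was not tested.

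Pmaip1 encodes NOXA, a BH3-only protein that binds Mcl1 and is induced by p53 and by stress (ENSMUSG00000024521.8, chr18:66458533-66465565, plus strand). It was at 1.95, 4.16 and 4.66 CPM in Myc wt/wt libraries 1, 2 and 4 and at 6.57, 4.23 and 11.4 CPM in Myc fl/fl libraries 1, 2 and 4. The values of Myc fl/fl libraries 1 and 4 were above all Myc wt/wt values and that of library 2 was not. The log2 fold change of 0.96 ± 0.35 (SE; 95% interval 0.18 to 1.74; adjusted p = 0.133 in edgeR) was the highest of the 10 members, with an interval nearly as wide as that of Bak1. Counts per library ranged from 15 in Myc wt/wt library 1 to 679 in Myc fl/fl library 4. Without replicate 2 the log2 fold change was 1.49 (adjusted p = 0.045), and without replicate 1 it was 0.66 (adjusted p = 0.364).

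Of the other 16 listed genes of the BCL2 family, 11 passed the filter and none was called, with a median log2 fold change of 0.15. Bcl2l13, a mitochondrial relative with a role in mitophagy, was the single one whose genotypes lay apart, at 67.8, 71.0 and 56.9 CPM in Myc wt/wt libraries 1, 2 and 4 and at 87.5, 74.7 and 84.7 CPM in Myc fl/fl libraries 1, 2 and 4 (log2 fold change 0.34 ± 0.15, SE; adjusted p = 0.206). Of all tested genes, 16.2% lay apart as higher and 15.1% as lower. In TPM the genotypes of Bcl2l13 overlapped, and its log2 fold change was 0.20 with offsets for effective length and also without replicate 4. The mitophagy receptors Bnip3l and Bnip3 were well expressed, with log2 fold changes of 0.14 ± 0.15 and 0.21 ± 0.19 (SE) and overlapping genotypes. Bbc3, encoding the p53-induced BH3-only protein PUMA, was at 3.12, 15.0 and 14.3 CPM against 11.8, 10.6 and 15.8 CPM. The low value of Bbc3 in Myc wt/wt library 1 set the sign of its log2 fold change of 0.38 ± 0.38 (SE), which was -0.18 without replicate 1. Bcl2l12 (0.14 ± 0.22), Bcl2a1d (0.15 ± 0.26) and Bik (0.19 ± 0.37) differed by less than their error on the log2 scale. The remaining genes lay at 1.07 CPM or less on average, namely Bmf (-0.55 ± 0.44), Bcl2l2 (-0.13 ± 0.45), Bcl2l14 (0.34 ± 0.59) and Bcl2l15 (-0.47 ± 0.60).

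The filter removed Bcl2l10, Bcl2a1a, Bcl2a1c, Bok and Hrk. Bcl2l10 and Bcl2a1c had 0 counts in every library, which allows up to 0.370 CPM in Myc wt/wt library 1 and up to 0.055 CPM in any other (3 counts, for counting error only). Hrk had at most 2 counts, Bcl2a1a at most 11 and Bok, a Bax-like relative, between 2 and 12. None of these 5 genes was tested.

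**Figure D4:**
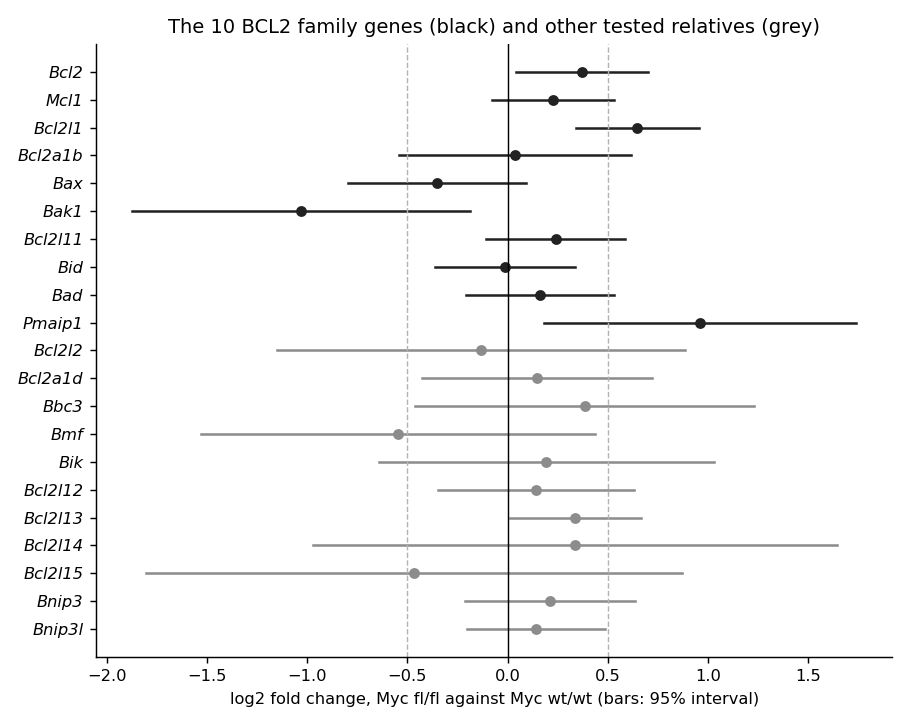
Points give the log2 fold change of Myc fl/fl against Myc wt/wt in edgeR for the 10 genes (black) and 11 further tested genes of the family (grey), with bars for the 95% interval and dashed lines at -0.5 and 0.5. The interval of Bcl2l1 runs from 0.34 to 0.96, and those of Bcl2, Pmaip1, Bak1 and Bcl2l13 also leave out 0.

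The genes around the family were followed on 4 further lists. In the mitochondrial route of caspase activation, none of 15 genes was called and the median log2 fold change was -0.06. Casp9, the caspase activated by the apoptosome, was at 51.8, 46.7 and 36.7 CPM in Myc wt/wt libraries 1, 2 and 4 and at 73.2, 61.0 and 65.4 CPM in Myc fl/fl libraries 1, 2 and 4, with no overlap (log2 fold change 0.57 ± 0.15, SE; adjusted p = 0.0444 in edgeR). It was called by DESeq2 (adjusted p = 0.00976). Vdac1 and Vdac3 encode channels of the outer mitochondrial membrane. Vdac1 was at 54.2, 89.2 and 60.6 CPM against 38.6, 10.02 and 31.2 CPM, with no overlap and Myc fl/fl library 2 far below the others (log2 fold change -1.50 ± 0.42, SE; adjusted p = 0.0599). Its log2 fold change was -0.72 without replicate 2 and -2.04 without replicate 1, and it was called with no filter on low counts (adjusted p = 0.0039). Vdac3 was at 219, 203 and 213 CPM against 161, 166 and 150.3 CPM (-0.41 ± 0.13; adjusted p = 0.0918). In all, 6 of the 15 genes lay below and 1 above with no overlap between the genotypes, beside 15.1% and 16.2% of all tested genes.

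On the list of inhibitors of apoptosis, which includes the Naip genes, 3 of the 8 tested genes were called lower and none higher. Of all tested genes 0.872% were called lower and 1.28% higher, and the median log2 fold change of the list was -0.32. The log2 fold changes of Xiap, Birc2, Birc3 and Birc6, named here after their values were seen, were -0.15, 0.26, 0.22 and -0.02. None of them was called. Birc5, encoding survivin, which also serves in chromosome segregation of dividing cells, was at 158, 135 and 134 CPM in Myc wt/wt libraries 1, 2 and 4 and at 74.5, 55.3 and 81.5 CPM in Myc fl/fl libraries 1, 2 and 4. Its genotypes lay far apart (log2 fold change -1.03 ± 0.15, SE; adjusted p = 0.0054 in edgeR). Naip2 and Naip5 are known as sensors of bacterial proteins in the inflammasome, although they are named after inhibitors of apoptosis. Naip2 was at 26.2, 17.97 and 23.9 CPM against 10.7, 5.98 and 4.04 CPM (log2 fold change -1.82 ± 0.27, SE; adjusted p = 0.0054), and Naip5 at 21.4, 18.7 and 18.4 CPM against 9.58, 5.10 and 1.84 CPM (-2.10 ± 0.37; adjusted p = 0.0099). As close paralogs side by side on chromosome 13 they may share reads, and the third tested copy, Naip6, was not called, while Naip1 did not pass the filter. None of these 3 calls held without replicate 1 or without replicate 2, where the adjusted p lay between 0.0118 and 0.0254. Birc5 was called without replicate 4 (adjusted p = 0.0030 in edgeR). Over all settings the log2 fold change lay between -1.21 and -0.89 for Birc5. It lay between -2.07 and -1.46 for Naip2 and between -2.58 and -1.54 for Naip5. With no replicate block Birc5 was called, whereas Naip2 (adjusted p = 0.0121) and Naip5 (adjusted p = 0.0344) were not.

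Of the 8 genes of the death receptor route, none was called and the median log2 fold change was 0.15. Cflar, encoding the caspase 8 inhibitor FLIP, had a log2 fold change of 0.35 ± 0.14 (SE; adjusted p = 0.155), Tnfrsf10b, the mouse TRAIL receptor, -0.40 ± 0.26 (adjusted p = 0.412) and Ripk1, a kinase of TNF signalling, 0.20 ± 0.14 (adjusted p = 0.449). In CPM, 3 of the 8 genes lay above (Cflar, Ripk1 and Fas) and 1 below (Tnfrsf10b) with no overlap between the genotypes, beside 16.2% and 15.1% of all tested genes. Fas, a death receptor, is named here after its values were seen.

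The last list held 19 genes that are known to regulate the family, as transcription factors or through protein stability. None was called, and the median log2 fold change was 0.21. At an adjusted p below 0.05, 1 gene was higher and 0 lower, beside 4.45% and 3.38% of all tested genes. Stat3, a transcription factor known to act on Bcl2l1 and Mcl1, was at 272, 268 and 257 CPM in Myc wt/wt libraries 1, 2 and 4 and at 435, 365 and 398 CPM in Myc fl/fl libraries 1, 2 and 4 (log2 fold change 0.59 ± 0.13, SE; adjusted p = 0.0281 in edgeR). Its genotypes lay far apart, and it was called by DESeq2 (adjusted p = 0.00073) and with no filter on low counts (adjusted p = 0.00793). Trp53, encoding p53, which induces Bax, Bbc3 and Pmaip1, was at 186, 199.8 and 196 CPM against 139, 143 and 145 CPM (-0.44 ± 0.13; adjusted p = 0.0675). Btrc, part of a ubiquitin ligase, was at 30.9, 34.5 and 33.4 CPM against 42.7, 45.3 and 45.8 CPM (0.44 ± 0.14; adjusted p = 0.099). Across the 4 lists and the other family members, 3 of 61 tested genes were called lower and 0 higher, beside 0.872% and 1.28% of all tested genes. There were 12 below and 12 above with no overlap between the genotypes, beside 15.1% and 16.2% of all tested genes.

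**Figure D5:**
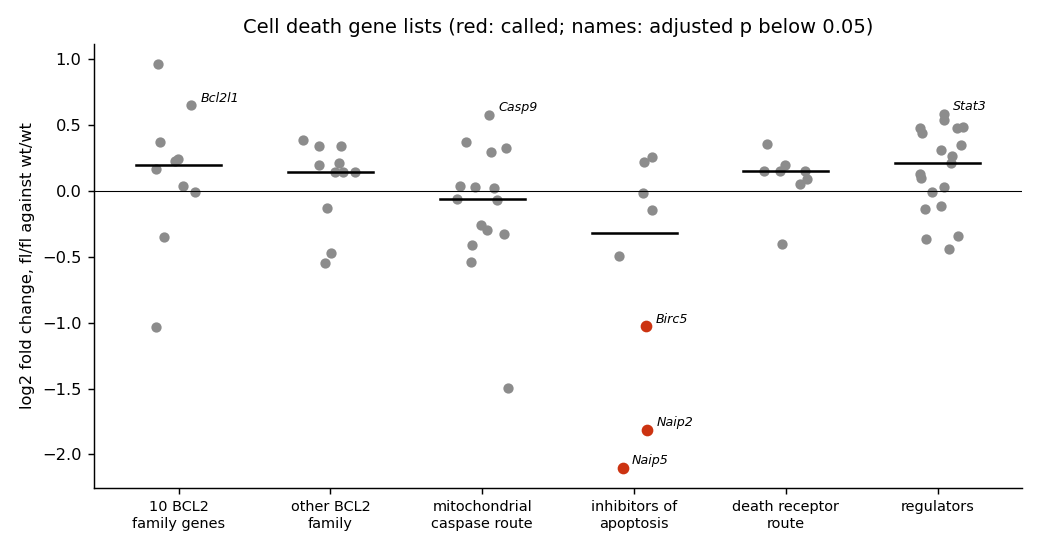
Each point is the log2 fold change of Myc fl/fl against Myc wt/wt for a tested gene of 6 lists, with red points for called genes, black bars for the median of each list and names for genes with an adjusted p below 0.05. The called genes, Birc5, Naip2 and Naip5, lie on the list of inhibitors of apoptosis, which includes the Naip genes. The medians range from -0.32 for that list to 0.21 among the regulators.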

How the data were processed

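SMART-Seq v4 libraries of BM CD27SP NK cells, 3 for Myc wt/wt and 3 for Myc fl/fl mice, had been sequenced single end. The authors deposited estimated counts, TPM values and effective lengths for 100583 transcripts per library, quantified per the labels with Salmon and the build GRCh38, although the transcript identifiers are those of mouse and the columns those of kallisto. Estimated counts were summed per gene symbol through GENCODE M21 (GRCm38, 100239 transcripts found), rounded, filtered by filterByExpr and normalized by TMM, and the deposited TPM were summed likewise. All genes were fitted with edgeR's quasi-likelihood test (4.0.16, R 4.3.3) with genotype and a block for replicate number, since the study describes its comparison as paired, with Benjamini-Hochberg adjustment across the 15474 genes tested. DESeq2 (1.42.0), limma-trend (3.58.1) and further settings served as alternatives, and the scripts were tested on simulated data.

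The members, lists and settings were chosen with earlier results of these data known. All 10 members, Myc and all other listed family genes are named, then on each further list the called genes, filled up to 3 by smallest adjusted p, and of each marker list the most abundant gene. Gene levels carry counting error set by depth, which was lowest in Myc wt/wt library 1.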

Additional observations from a re-analysis of the deposited data

How the results depend on the processing

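The 10 members had no gene called lower in any of the settings tried. The number called higher was 0 in the main edgeR fit, which has the replicate block. With the block kept, it was 1 (Bcl2l1) in DESeq2, with no filter on low counts and at an adjusted p below 0.05. Without the block it was 1 (Bcl2l1) in edgeR on all libraries and in DESeq2, the latter a setting chosen after seeing the data. Leaving out replicate 1, 2 or 4 gave 0. Equal replicate numbers did not mark libraries that deviated together, with correlations of 0.00177, -0.0883 and 0.0912 for replicates 1, 2 and 4. Only the libraries numbered 4 correlated best with their own number. The block is kept because the study calls its comparison paired. Of the 61 other pathway genes tested, 3 were called lower in the main fit. That number was 1 without the block and 0 to 3 with a replicate left out. It was 0 with library size only, with effective length offsets and with neither Myc wt/wt library 1 nor the block. The number called higher was 0, but 2 in DESeq2 and at an adjusted p below 0.05, and 1 with no filter and in DESeq2 without the block.

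Over all genes, 198 were called higher and 135 lower. With a replicate left out these were 49 to 162 and 10 to 114, in DESeq2 643 and 537, in DESeq2 without the block 703 and 639, with library size only 49 and 25, with effective length offsets 24 and 6, with no filter 524 and 378, at an adjusted p below 0.05 689 and 523, and with neither Myc wt/wt library 1 nor the block 113 higher. The block moved no other count of calls by more than 1.5 times.

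Of the 34 genes followed, 25 kept their direction in every setting that gave a value, among them Bcl2l14 and Bcl2l15, which had none with at least 10 counts in every library or after thinning. The log2 fold change of Bid, -0.01, was 0.0017 with library size only, 0.0052 with effective length offsets, 0.0014 with no filter, 0.014 with at least 10 counts in every library, 0.079 with neither Myc wt/wt library 1 nor the block and 0.055 after thinning to the shallowest library. With a replicate left out it lay between -0.21 and 0.14. That of Bcl2a1b was -0.041 without the block, -0.039 in DESeq2 without the block, -0.24 with neither Myc wt/wt library 1 nor the block and between -0.16 and 0.42 with a replicate left out. With neither Myc wt/wt library 1 nor the block it was -0.22 for Bbc3, -0.0014 for Bcl2a1d, -0.064 for Bcl2l12 and -0.053 for Bik. With effective length offsets it was 0.30 for Bcl2l2 and 0.15 for Bmf, and for Bcl2l2 0.31 after thinning. With a replicate left out it lay between -0.18 and 0.93 for Bbc3, -0.094 and 0.33 for Bcl2l12, -0.41 and 0.24 for Bcl2l2, -0.052 and 0.39 for Bik, and -0.0016 and 0.40 for Bnip3. The causes were not tested.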
